A study of Mus musculus with 12 samples.

Results

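The genes described here encode subunits of the mitochondrial respiratory chain and ATP synthase. They are the protein-coding genes whose mouse symbol fits the naming patterns of complex I (Nduf), complex II (Sdh), complex III (Uqcr), complex IV (Cox4 to Cox8), ATP synthase (Atp5, called complex V here) and the mitochondrially encoded subunits (mt-Nd, mt-Co, mt-Atp, mt-Cytb). Of 56941 genes in the deposited table, 110 matched these patterns, and 12 were left out as pseudogenes or genes not annotated as protein-coding. The 98 that remained hold 85 nuclear and 13 mitochondrially encoded genes. Complex I has 35 nuclear and 7 mitochondrial members, complex II has 4 nuclear members, complex III has 8 and 1, complex IV has 20 and 3, and complex V has 18 and 2. The pattern does not take in cytochrome c1 (Cyc1), Ndufab1 or Usmg5, which are subunits under other names. Gene symbols are those of the annotation used for matching, so that the c subunit genes, for example, appear as Atp5g1, Atp5g2 and Atp5g3.

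RNA was sequenced from CH12F3-2A, a mouse B cell lymphoma line that switches from IgM to IgA in culture. Cells carried a Cas9 plasmid (pX459) with a guide against Nop16 (sgNop16) or with a non-targeting guide (sgCtr), and all were transfected and selected with puromycin for 72 h. They then received CIT for 24 h (TGF-β at 1 ng/ml, IL-4 at 20 ng/ml and anti-CD40L at 1 μg/ml) or no stimulation, which gave the groups sgNop16 with CIT, sgCtr with CIT, sgNop16 without and sgCtr without, each with 3 libraries that the study calls biological replicates. The study's question was the role of the nucleolar protein NOP16 in this switch. The labels do not say whether the cells were a clone or a mixed pool, and they name no other guide against Nop16, so a difference between guides cannot be told apart from an effect of the guide itself. Total counts were 38866418 to 48615177 per library. Nop16 itself averaged 65.7 ± 0.93 CPM in sgNop16 and 77.1 ± 3.46 CPM in sgCtr cells with CIT, and 85.6 ± 3.1 against 106 ± 2.33 CPM without (CPM, counts scaled to library size with TMM factors; ± is the SD of 3 libraries throughout, and the SE where a log2 value carries it). The differences were called (log2 -0.23 ± 0.04 and -0.31 ± 0.04, adjusted p = 0.00204 and 0.000109). The 8 B cell markers, with Ighm highest at a mean of 2284.4 CPM, summed to 3541.2 to 3644.7 and 3751.0 to 3847.0 CPM in sgNop16 and sgCtr cells with CIT and to 3528.5 to 3563.5 and 3872.6 to 3940.0 CPM without. The T cell marker list summed to 183 to 189.8 and 195 to 208 CPM in sgNop16 and sgCtr cells with CIT and 209 to 216 and 188 to 206 CPM without, nearly all of it Lck (mean 198 CPM). Without Lck that sum was at most 2.6 CPM. The macrophage list summed to 15.7 to 18.1 and 11.9 to 15.1 CPM with CIT and to 9.44 to 10.9 and 7.7 to 8.9 CPM without. Among its 7 genes Lyz2, Cd14 and Fcgr1 were at 0 in every library. Fibroblast and erythroid lists summed to at most 5.2 and 2.59 CPM, with Col1a2, Dcn and Lum of the fibroblast list at 0. In both states the B cell sum was lower and the macrophage sum higher in every sgNop16 than in every sgCtr library, the T cell sum was lower in sgNop16 with CIT and higher without, and the macrophage sum was higher with CIT. Their part in the results below was not tested.

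Complexes I and II feed electrons into the chain from NADH and succinate, complex III passes them from ubiquinol to cytochrome c, and complex IV hands them to oxygen. Complexes I, III and IV pump protons, and complex V uses the proton gradient to make ATP. Complexes I, III, IV and V each combine products of nuclear genes, translated in the cytosol and imported, with products of mitochondrial DNA, which is transcribed as long polycistronic RNA from both strands and cut at its tRNAs. Complex II alone is built from nuclear genes only and is also an enzyme of the tricarboxylic acid (TCA) cycle. Activated B cells are known to raise both glycolysis and respiration.

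With CIT, many nuclear genes of the chain fell and few rose, while most of the mitochondrially encoded ones did not pass the test. Rose and fell are used for genes with an adjusted p under 0.05 by edgeR (quasi-likelihood F test, 16794 genes tested), and such genes are said to be called. Of the 98 members, 91 were tested. In sgNop16 cells 40 fell and 3 rose with CIT, beside 18.5% of all tested genes called lower and 19.3% called higher. In sgCtr cells 55 fell and 2 rose, beside 21.1% lower and 20.6% higher. All called members were among the 88 with a mean of at least 20 CPM, and abundant genes are called more often. Among the 7745 genes at or above that mean, a limit chosen after the data were seen, 31.7% were called lower in sgNop16 and 36.9% in sgCtr cells, beside 45.5% and 62.5% of the 88 members. For calls in the other direction the shares were 26.2% and 26.6% of these genes, beside 3.41% and 2.27% of the members. The counts by complex below are to be read beside the same shares. Of the 40 genes lower in sgNop16 and the 55 lower in sgCtr cells, 37 were the same, which is 92.5% and 67.3% of the lists.

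Most of these changes were small. The median log2 change of the 78 tested nuclear members was -0.13 in sgNop16 and -0.18 in sgCtr cells, beside 0.01 and 0.02 over all tested genes. The 13 mitochondrially encoded members had medians of 0.02 and -0.02. With a minimum of 1.2-fold added to the call, 7 genes in sgNop16 and 25 in sgCtr cells stayed lower and none stayed higher. The summed level of the 85 nuclear genes was 11646, 11642 and 11642 CPM in the sgNop16 libraries with CIT, against 12550.1, 12496 and 12529 CPM without. In sgCtr cells the sum was 11141, 11178 and 11220.3 CPM with CIT, against 12808, 12639 and 12806 CPM without. All stimulated libraries lay below all unstimulated ones, and the sgCtr libraries with CIT were the lowest of all. These are shares of each library's RNA. In bulk RNA, fewer cells of a type and less RNA per cell cannot be told apart, and a lower share says nothing of the amount per cell.

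**Figure D1:**
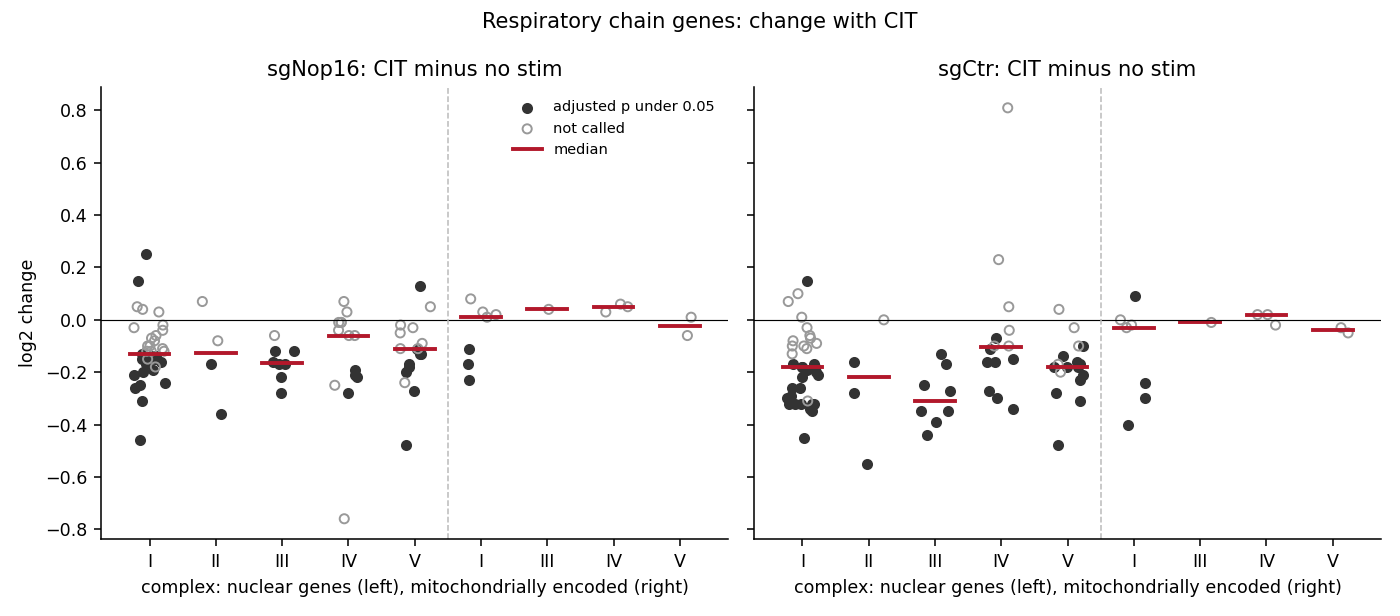
Log2 change with CIT of each tested gene, by complex (horizontal axis; nuclear genes left and mitochondrially encoded genes right of the dashed line), in sgNop16 cells (left panel) and sgCtr cells (right panel). Filled points passed adjusted p under 0.05 and red lines are medians; nearly all filled points lie below 0, and the 2 open points farthest from 0 are Cox7a1 and Ndufa4l2, which are near the detection limit.

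**Figure D2:**
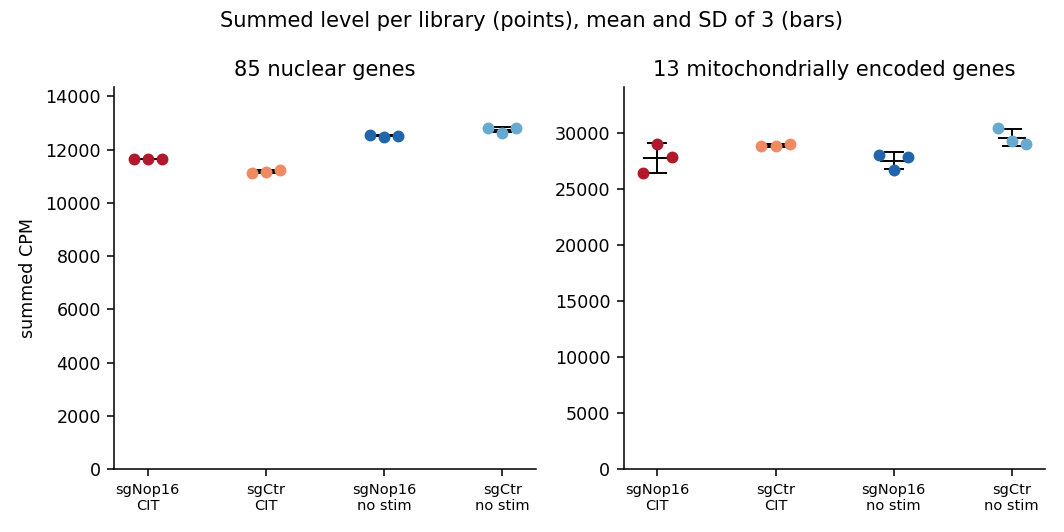
Summed CPM of the 85 nuclear genes (left) and the 13 mitochondrially encoded genes (right) in each library, with the mean and SD of 3. The nuclear sum is lower in every library with CIT, while the mitochondrial sums of the sgNop16 libraries with CIT spread most and overlap those of each other group.

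Complex I takes electrons from NADH through a flavin and a row of iron-sulfur clusters. Of its 7 nuclear core subunits, which bind those cofactors, 5 fell in sgNop16 and 6 in sgCtr cells with CIT. Of its 28 accessory subunits, 11 and 15 fell and 2 and 1 rose. Among the accessory subunits Ndufa5, in the arm that reaches into the matrix, had 28.1, 30.6 and 30.4 CPM in sgNop16 cells with CIT, against 43.7, 38.1 and 40.4 CPM without. With the sgCtr guide the values were 30.5, 26.4 and 27.6 CPM with CIT, against 40.9, 36.8 and 37.8 CPM without. No stimulated library reached an unstimulated one, and Ndufa5 fell by 27.1% and 26.8% (adjusted p = 1.96e-05 and 1.97e-05). Ndufa9, which sits next to the quinone site, fell by 10.4% in sgNop16 and by 21.6% in sgCtr cells. Ndufb6, of the membrane arm, fell by 19.5% and 19.7%. Ndufb8, also of the membrane arm, fell by 0.15 and 0.32 on the log2 scale. Ndufa6 fell by 16.3% in sgNop16 cells (adjusted p = 0.00756, and 0.0509 without sgNop16 with CIT library 3), and its change of -0.10 in sgCtr cells was not called. Ndufa9 and Ndufb6 share annotated exon sequence with a gene on the opposite strand and Ndufb8 with one on its own strand. No source used here gives the counting's strand setting, so reads from such pairs cannot be told apart.

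Ndufv3, a small accessory subunit beside the NADH-binding core, went the other way. It had 62.2, 64.4 and 64.3 CPM in sgNop16 cells with CIT, against 54.3, 55.4 and 51 CPM without. sgCtr cells gave 63.4, 61.4 and 60.1 CPM with CIT, against 50.8, 56.5 and 59.1 CPM without. The groups did not overlap with either guide. The log2 changes were 0.25 ± 0.06 (adjusted p = 0.000999) and 0.15 ± 0.06 (adjusted p = 0.0329). In sgCtr cells the call was lost without library 1 of the unstimulated group (adjusted p = 0.222) and without library 1 or 2 of the CIT group (0.124 and 0.0708). Ndufc2, a membrane subunit, rose in sgNop16 cells by a narrow call (0.15 ± 0.05, adjusted p = 0.0303). That call was lost without any of 7 libraries, with adjusted p between 0.0504 and 0.211 (libraries 2 and 3 of the CIT and 1 and 2 of the unstimulated sgNop16 group, and each unstimulated sgCtr library). Its change in sgCtr cells was 0.07 ± 0.05.

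The 4 subunits of complex II did not move together. Sdha, the flavoprotein that oxidises succinate, had 388, 390.0 and 375 CPM in sgNop16 cells with CIT, against 363, 360.2 and 378 CPM without. The sgCtr libraries had 373, 384 and 358 CPM with CIT, against 377, 368 and 367 CPM without. These groups overlapped, and neither change was called (0.07 ± 0.03 and 0.00 ± 0.03). Sdhb, the iron-sulfur subunit that takes the electrons from Sdha, had 100.3, 99.2 and 98.8 CPM in sgNop16 cells with CIT, against 128, 127 and 128 CPM without. With the sgCtr guide the values were 85.8, 85.4 and 88.7 CPM with CIT, against 134, 120.4 and 127 CPM without. No stimulated library reached an unstimulated one, and within CIT every sgNop16 library was above every sgCtr library. Sdhb fell by 22.1% in sgNop16 (adjusted p = 8.39e-08) and by 31.9% in sgCtr cells (adjusted p = 5.28e-11), and both calls held in every alternative fit. Sdhd, a membrane anchor, fell by 10.8% and 17.8%. Sdhc, the other anchor, fell by 10.7% in sgCtr cells (adjusted p = 0.00272), and its change of -0.08 ± 0.04 in sgNop16 cells was not called. Per kilobase of transcript the 4 genes were close together in unstimulated sgCtr cells, at 128 ± 1.97 CPM per kilobase for Sdha and 111 ± 5.75 for Sdhb. With CIT, Sdha was at 133 and 128 CPM per kilobase in sgNop16 and sgCtr cells, and Sdhb at 87.1 and 75.9.

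The promoter windows of these 2 genes are shown because the subunits differed so in their change. They run from 250 bases before to 50 after the RefSeq start, 5′ to 3′ on the gene's strand, in build GRCm38.p6, at chr4:140961021-140961320 (plus strand) for Sdhb and chr13:74350191-74350490 (minus strand) for Sdha. Capitals mark CCGGAAG, a core of sites for ETS factors such as GABP, which with NRF1 and YY1 is known to act on many respiratory genes. None of the 3 motifs searched, spelled out further on, is in the Sdha window, which says nothing of what binds there.
Sdhb: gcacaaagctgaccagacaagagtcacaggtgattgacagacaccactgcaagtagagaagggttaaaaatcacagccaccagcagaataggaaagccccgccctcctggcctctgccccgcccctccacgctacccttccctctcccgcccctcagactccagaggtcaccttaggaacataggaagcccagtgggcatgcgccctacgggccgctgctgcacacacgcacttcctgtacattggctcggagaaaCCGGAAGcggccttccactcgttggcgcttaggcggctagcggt
Sdha: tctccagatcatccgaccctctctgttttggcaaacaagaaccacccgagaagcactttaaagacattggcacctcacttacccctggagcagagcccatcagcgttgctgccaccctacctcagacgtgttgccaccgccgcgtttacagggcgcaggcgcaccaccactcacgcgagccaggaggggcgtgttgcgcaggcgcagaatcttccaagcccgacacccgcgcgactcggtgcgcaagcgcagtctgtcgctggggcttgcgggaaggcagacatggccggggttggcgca

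**Figure D3:**
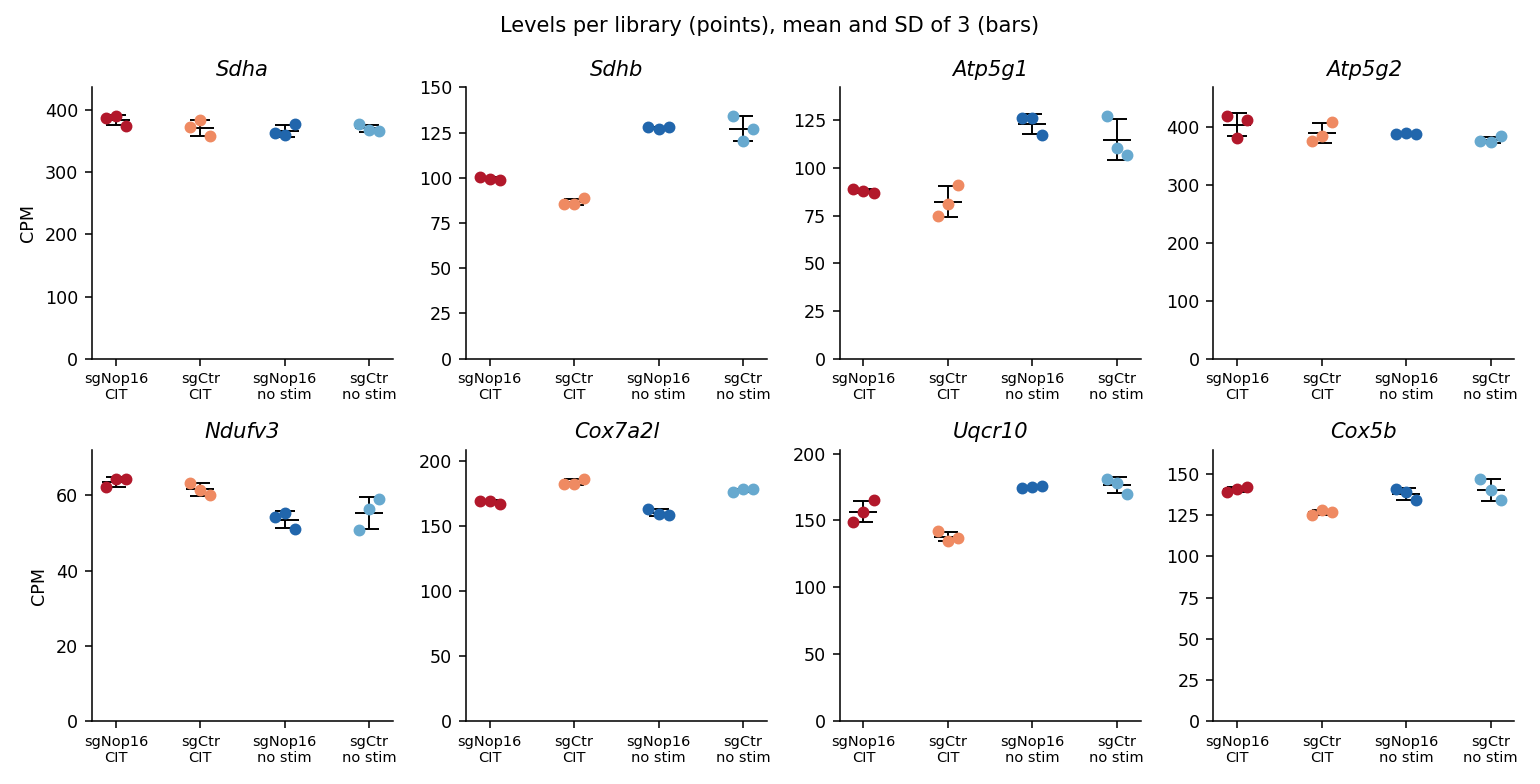
CPM per library (points) with the mean and SD of 3 (bars) for 8 genes in the 4 groups, on axes that start at 0. Sdhb, Atp5g1 and Uqcr10 are lower with CIT, Sdha and Atp5g2 are level, Ndufv3 is higher with CIT, and Cox7a2l is lower with the Nop16 guide with CIT and without.

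All 8 nuclear genes of complex III fell with CIT in sgCtr cells, and 7 of them in sgNop16 cells. Uqcrfs1, the Rieske iron-sulfur protein, had 118, 105 and 111 CPM in sgNop16 cells with CIT, against 137, 127 and 143 CPM without. sgCtr cells gave 106, 111 and 103 CPM with CIT, against 149.7, 145 and 141 CPM without. The stimulated libraries were all below the unstimulated ones, and Uqcrfs1 fell by 17.9% and 26.4% (adjusted p = 2.66e-05 and 3.74e-08). The small subunits Uqcrb, Uqcrq and Uqcr10 fell by 14.4%, 11.4% and 10.2% in sgNop16 and by 23.8%, 21.5% and 21.5% in sgCtr cells. The Uqcrb call in sgNop16 cells was lost without library 1 of the unstimulated or library 2 of the CIT group (adjusted p = 0.0761 and 0.0593), and 58.2% of its 31-base words occur in other annotated genes. The exception in sgNop16 cells was Uqcrc1, a core protein facing the matrix, with a change of -0.06 ± 0.03 beside a called -0.17 ± 0.03 in sgCtr cells. The mitochondrially encoded partner, mt-Cytb (cytochrome b), was not called with either guide (0.04 ± 0.03 and -0.01 ± 0.03). Cyc1, cytochrome c1, was not called with CIT in sgNop16 cells (-0.06 ± 0.03) and fell in sgCtr cells (-0.32 ± 0.03), and this difference in response was itself called (0.25 ± 0.05, adjusted p = 0.00293).

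Complex IV had the most members at or near 0, all of them isoforms known from other tissues. Cox7b2, Cox8b and Cox8c had no count in any library, Cox4i2 had 5 counts in all 12 libraries together, Cox6b2 had 29 and Cox6a2, the heart and muscle isoform of Cox6a1, had 52. These 6 genes and a second gene identifier of Atp5o, which had no count, were the 7 members not tested. Cox7a1, the heart and muscle partner of Cox7a2, was at 0.652 ± 0.192 and 1.22 ± 0.707 CPM with CIT in sgNop16 and sgCtr cells, and Ndufa4l2, the partner of Ndufa4, at 0.0664 ± 0.0978 and 0.24 ± 0.139 CPM. Neither was called in any comparison. The general isoforms were the ones present. Cox4i1 had 395 ± 8.56 CPM in sgNop16 and 386 ± 4.96 CPM in sgCtr cells with CIT, against 397 ± 1.35 and 404 ± 10.2 CPM without. Its called fall of 4.65% in sgCtr cells was lost under 11 alternatives, among them leaving out library 2 or 3 of either sgCtr group (adjusted p between 0.0756 and 0.166).

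Of the 14 tested nuclear genes of complex IV, 4 fell with CIT in sgNop16 and 8 in sgCtr cells, and none rose. Among all genes with a mean of at least 20 CPM, 31.7% and 36.9% were called lower. The sgNop16 count of falls is thus close to the background. Cox7a2 had 83.2, 80.4 and 74.4 CPM in sgNop16 cells with CIT, against 97.9, 97.7 and 94.4 CPM without. The sgCtr libraries had 80.6, 72.5 and 78.8 CPM with CIT, against 98.8, 97.3 and 97.8 CPM without. Both pairs of groups were apart, and Cox7a2 fell by 17.9% and 21.1%. Cox7b fell by 13.7% and 18.6% and Cox8a by 12.1% and 17.1%. Cox7c fell in sgNop16 cells (-0.22 ± 0.05), and its change of -0.10 ± 0.05 in sgCtr cells was not called (55.7% of its 31-base words occur in other genes). Ndufa4, named for complex I and now counted as a subunit of complex IV, fell in sgCtr cells (-0.16 ± 0.04), with -0.06 ± 0.04 in sgNop16 cells. Cox6a1 and Cox6b1 were not called with either guide. Cox7a2l, a relative of Cox7a2 that joins complexes III and IV into supercomplexes, was not called either (0.07 ± 0.03 and 0.05 ± 0.03).

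In ATP synthase, 4 of the 5 genes of the catalytic F1 head fell in sgNop16 and all 5 in sgCtr cells, and 2 of the 3 genes for the c subunit fell with each guide. Atp5b, the catalytic β subunit and the most abundant nuclear member per length at 892 ± 15.2 CPM per kilobase in unstimulated sgCtr cells, had 1455.4, 1506.1 and 1455.4 CPM in sgNop16 cells with CIT, against 1661.5, 1671.2 and 1660.6 CPM without. With the sgCtr guide the values were 1416.2, 1408.1 and 1396.3 CPM with CIT, against 1740.9, 1683.6 and 1702.7 CPM without. Stimulated and unstimulated libraries were far apart relative to their spread, and Atp5b fell by 11.5% and 17.7% (adjusted p = 1.2e-07 and 4.29e-11). Of the 4 tested peripheral stalk genes, Atp5j rose in sgNop16 cells (0.13 ± 0.03, adjusted p = 0.00418, and 0.0533 without library 1 of the CIT group) and was at -0.03 ± 0.03 in sgCtr cells. Atp5j shares annotated exon sequence with Gabpa on the opposite strand, and 19.7% of its 31-base words occur in other genes. Gabpa was called higher with CIT with both guides, and reads from this pair cannot be told apart. Atp5mpl, a small membrane subunit, fell by 19.1% in sgCtr cells, and its change of -0.11 ± 0.05 in sgNop16 cells was not called. Atp5k, another small membrane subunit, fell in sgNop16 cells (-0.27 ± 0.08, adjusted p = 0.00998, and 0.0602 without library 2 of the CIT group), and its -0.20 ± 0.08 in sgCtr cells was not called.

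Atp5g1, Atp5g2 and Atp5g3 encode the same mature c subunit, which forms the rotating ring, with different import sequences. Atp5g1 had 89, 88.1 and 86.8 CPM in sgNop16 cells with CIT, against 126, 126 and 117 CPM without. sgCtr cells gave 74.6, 81.2 and 91.1 CPM with CIT, against 127, 110.2 and 107 CPM without. No library of one state reached the other, and Atp5g1 fell by 28.5% and 28.4% (adjusted p = 2.22e-05 and 1.99e-05). Atp5g3 fell by 0.20 and 0.18 on the log2 scale. Atp5g2 had 418, 381 and 411 CPM in sgNop16 cells with CIT, against 388, 389 and 388 CPM without, and 375, 384 and 408 CPM with CIT in sgCtr cells, against 375, 373 and 384 CPM without. Those libraries overlapped, and its changes of 0.05 ± 0.03 and 0.04 ± 0.03 were not called. Per kilobase, Atp5g2 was at 914 and 882 CPM in sgNop16 and sgCtr cells with CIT, Atp5g3 at 433 and 445, and Atp5g1 at 127 and 119. All 31-base words of the Atp5g2 transcript and 57.6% of those of Atp5g1 also occur in other annotated genes, so their counts may hold reads of copies.

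The promoter windows of Atp5g1 and Atp5g2 are shown as those of the lowered and the level c subunit gene, on the minus strand at chr11:96075582-96075881 and chr15:102670998-102671297 in GRCm38.p6. Capitals mark GCGCATGCG, a motif of NRF1, which is found there on both strands in overlapping positions. The Atp5g1 window holds none of the 3 motifs.
Atp5g1: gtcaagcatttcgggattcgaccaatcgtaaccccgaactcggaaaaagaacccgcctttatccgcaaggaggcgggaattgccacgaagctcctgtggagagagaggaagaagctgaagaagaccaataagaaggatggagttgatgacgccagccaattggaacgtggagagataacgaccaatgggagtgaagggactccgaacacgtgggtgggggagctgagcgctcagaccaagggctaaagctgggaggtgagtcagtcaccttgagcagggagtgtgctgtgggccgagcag
Atp5g2: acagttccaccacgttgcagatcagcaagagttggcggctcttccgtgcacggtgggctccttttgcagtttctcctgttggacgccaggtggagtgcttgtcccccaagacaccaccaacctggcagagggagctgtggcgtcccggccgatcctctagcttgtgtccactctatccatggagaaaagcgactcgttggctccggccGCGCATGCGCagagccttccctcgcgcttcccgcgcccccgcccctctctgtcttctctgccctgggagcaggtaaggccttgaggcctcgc

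The motifs were GCGCATGCG (NRF1), CCGGAAG (ETS factors) and AAGATGGCG (YY1), searched on both strands in the same 300-base windows. Of 66 member genes matched to a RefSeq promoter, 8 held the NRF1, 16 the ETS and 7 the YY1 motif, which is 12.1%, 24.2% and 10.6%. Among 17426 other protein-coding genes the shares were 2.58%, 12.9% and 2.11%. Of the genes with a motif, 2 of 8 with the NRF1, 11 of 16 with the ETS and 6 of 7 with the YY1 letters fell with CIT in sgCtr cells. Over all 78 tested nuclear members 52 fell there. Whether a motif goes with a fall was not tested. A match is a run of letters and not a measured site.

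The mitochondrially encoded genes did not move as one. With CIT, mt-Nd1, mt-Nd2 and mt-Nd3, all membrane subunits of complex I, fell with both guides. The other 4 complex I genes, mt-Cytb, the 3 complex IV genes and the 2 complex V genes were not called in sgNop16 cells, and of these mt-Nd5 alone was called in sgCtr cells, where it rose. Libraries of 1 group differed in the level of these genes as a whole. The summed level was 26428, 29046 and 27861 CPM in sgNop16 and 28828, 28820.2 and 29013 CPM in sgCtr cells with CIT, against 28067, 26663 and 27899 CPM and 30437, 29288 and 29028 CPM without. The SD over the 3 sgNop16 libraries with CIT was thus 1310.8 CPM, against 109 CPM in sgCtr cells, and their overlap with the unstimulated libraries bears on every mitochondrial value below.

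mt-Nd3 had 143, 166 and 159 CPM in sgNop16 cells with CIT, against 191, 175 and 182 CPM without. The sgCtr libraries had 163, 152 and 171 CPM with CIT, against 231, 209 and 203 CPM without. Both pairs of groups were apart, and mt-Nd3 fell by 14.6% (adjusted p = 0.00781) and 24.4% (adjusted p = 6.14e-05). mt-Nd2 had 1172.8, 1302.2 and 1225.5 CPM in sgNop16 cells with CIT, against 1451.9, 1336.3 and 1385.4 CPM without. With the sgCtr guide the values were 1254.8, 1240.8 and 1289.7 CPM with CIT, against 1618.3, 1525.5 and 1503.0 CPM without. These too did not overlap, and mt-Nd2 fell by 11.3% and 18.5%. mt-Nd1 had 2683.8, 3001.7 and 2798.9 CPM in sgNop16 cells with CIT, against 3140.9, 2962.9 and 3063.2 CPM without, and these overlapped. sgCtr cells gave 2869.1, 2871.4 and 2902.1 CPM with CIT, against 3515.1, 3375.1 and 3338.5 CPM without. mt-Nd1 fell by 15.5% in sgCtr cells (adjusted p = 7.94e-05). Its fall of 7.44% in sgNop16 cells (adjusted p = 0.0237) was lost without library 3 of the CIT or library 1 or 3 of the unstimulated group (adjusted p = 0.059, 0.0529 and 0.0631), with the replicate number as a block (0.0563) and with only the groups compared in the fit (0.0727).

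mt-Nd5, another membrane subunit of complex I, had 1701.3, 1802.2 and 1714.2 CPM in sgNop16 cells with CIT, which overlapped its 1740.9, 1680.6 and 1741.8 CPM without. In sgCtr cells it was at 1858.5, 1857.5 and 1852.1 CPM with CIT, against 1801.9, 1727.4 and 1703.7 CPM without, and rose by 6.39% (adjusted p = 0.00375). The other members, mt-Nd4, mt-Nd4l, mt-Nd6, mt-Cytb, mt-Co1, mt-Co2, mt-Co3, mt-Atp6 and mt-Atp8, had changes between -0.06 and 0.08 with either guide. The most abundant member of all was mt-Co1, the catalytic subunit of complex IV, at 7263.7 CPM per kilobase in unstimulated sgCtr cells. Among nuclear complex IV genes Cox4i1 was highest there, at 543. The 2 mitochondrial rRNAs, which lie upstream of mt-Nd1 on the same strand, also fell. mt-Rnr1 was at 116 ± 3.36 and 122 ± 2.8 CPM in sgNop16 and sgCtr cells with CIT, against 164 ± 2.38 and 182 ± 5.79 CPM without, and mt-Rnr2 at 296 ± 10.3 and 351 ± 13 CPM, against 369 ± 22.6 and 399 ± 2.13 CPM. Between guides mt-Rnr2 was lower in sgNop16 cells with CIT (-0.25 ± 0.04, adjusted p = 0.000123) and mt-Rnr1 without (-0.15 ± 0.04, adjusted p = 0.0161). The mt-Rnr1 call was lost without unstimulated library 1 or 2 of sgNop16 or 1 or 3 of sgCtr (adjusted p up to 0.0953). No source used here says how rRNA was removed from the libraries, and its effect on these levels was not tested.

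**Figure D4:**
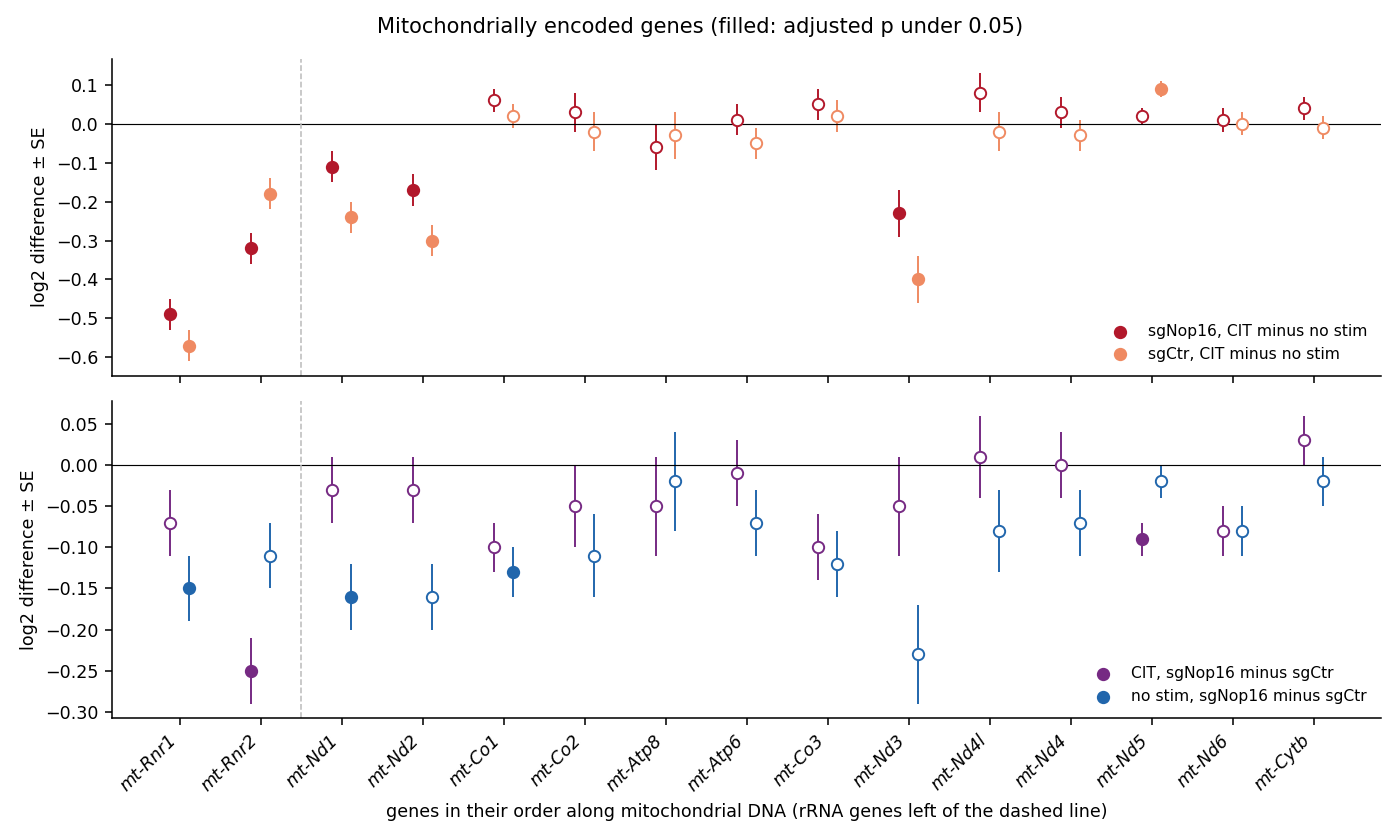
Log2 difference ± SE of the 13 mitochondrially encoded members and the 2 mitochondrial rRNAs, in their order along mitochondrial DNA; the upper panel gives the change with CIT in sgNop16 and sgCtr cells, the lower the difference of sgNop16 from sgCtr cells with CIT and without. Filled points passed adjusted p under 0.05; with CIT the called falls are both rRNAs, mt-Nd1, mt-Nd2 and mt-Nd3, and the differences between guides are mostly below 0.

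Mitochondrial genes abut or overlap, which limits how well counts can be divided between neighbours. mt-Atp8 and mt-Atp6 are read from one RNA and share 43 bases at chrM:7927-7969 (GRCm38, plus strand), shown with the start codon of mt-Atp6 in capitals.
mt-Atp8 and mt-Atp6: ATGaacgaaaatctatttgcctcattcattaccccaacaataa
mt-Nd4l and mt-Nd4 share 7 bases on the same strand and mt-Nd5 and mt-Nd6 share 14 on opposite strands. mt-Nd1 and mt-Nd2 share bases with a tRNA gene on their own strand.

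The mouse nuclear genome also holds copies of mitochondrial DNA that are annotated as pseudogenes. For mt-Co3, mt-Co2, mt-Atp6, mt-Nd4l and mt-Nd3, between 98.1% and 99.9% of the 31-base words occur in 1 such copy, all 5 of these copies being on chromosome 1. The copies were counted at nearly the same level as the genes. mt-Co3 averaged 1500.3 and 1603.9 CPM in sgNop16 and sgCtr cells with CIT, and its copy Gm28437 averaged 1497.0 and 1599.5 CPM. mt-Nd3 averaged 156 and 162 CPM, and Gm28438 averaged 165 and 174 CPM. No source used here says how reads with several matching places were counted, so the level of these genes is uncertain. With the copies added, the log2 change of mt-Nd3 was -0.23 in sgNop16 and -0.39 in sgCtr cells, beside -0.23 and -0.40 for the gene alone.

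**Figure D5:**
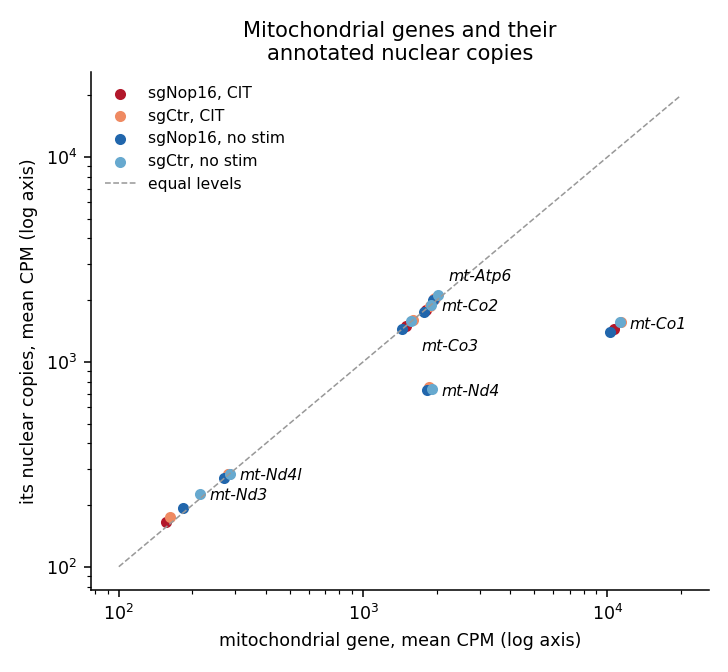
Mean CPM of mitochondrial genes (horizontal, log axis) against the summed mean CPM of their annotated nuclear copies (vertical, log axis) in the 4 groups. mt-Nd3, mt-Nd4l, mt-Co2, mt-Co3 and mt-Atp6 lie on or close to the line of equal levels; mt-Co1 and mt-Nd4, which share less of their sequence with these copies, lie below it.

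Levels can be set side by side between genes only per length, and in unstimulated sgCtr cells they differed widely by complex and genome. Nuclear genes of complex I ran between 33.6 (Ndufs4, an accessory subunit) and 221 CPM per kilobase (Ndufb8), with a median of 88.6. Complex III had a median of 182, from 107 (Uqcrfs1) to 406 (Uqcr10). In complex V the highest was Atp5b at 892 and Atp5s, a coupling factor, was at 5.08. Within complexes I, III, IV and V, mitochondrially encoded genes were above all nuclear ones. They ran from 616 (mt-Nd3) to 3562.7 CPM per kilobase (mt-Nd1) in complex I, and mt-Cytb of complex III was at 2419.7. The lowest mitochondrial gene of complex IV was mt-Co3 at 2010.7, above Cox4i1 at 543. That of complex V was mt-Atp8 at 2054.2, above Atp5b. Ndufs4, Ndufb8 and the others at these ends are named for their rank in level, after the values were seen.

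Between the guides, few members differed without stimulation. Of the 91 tested, 3 were lower in sgNop16 than in sgCtr cells and none was higher, beside 1.92% of all tested genes called lower and 2.14% called higher (edgeR). Among genes with a mean of at least 20 CPM, 3.76% were called lower and 3.64% higher, beside 3.41% and 0% of the 88 members. The members' share called lower is thus close to the background. At an unadjusted p under 0.05 the counts over the 91 members were 14 lower and 2 higher. No share of all tested genes at that limit is given here to set beside them. DESeq2 called 7 members lower and none higher, beside 413 lower and 514 higher among all 12558 genes with an adjusted p. Cox7a2l, with 23.3% of its 31-base words in other annotated genes, had 163, 159 and 158 CPM in sgNop16 cells, against 176, 178 and 178 CPM in sgCtr cells. The groups were apart by more than their spread, and Cox7a2l was lower (log2 difference -0.15 ± 0.03, adjusted p = 0.00466), a call that held in every alternative fit, though not with a minimum of 1.2-fold. The other 2 were mt-Nd1 (-0.16 ± 0.04, adjusted p = 0.0248) and mt-Co1 (-0.13 ± 0.03, adjusted p = 0.0237). mt-Co1 had 10336, 9994.3 and 10499.5 CPM in sgNop16 cells, against 11485, 11224 and 10958 CPM in sgCtr cells. Neither call held when single libraries were left out. For mt-Nd1 the adjusted p was 0.124 and 0.123 without sgNop16 library 2 or 3 and 0.0896, 0.086 and 0.0672 without sgCtr library 1, 2 or 3. For mt-Co1 it was 0.0917, 0.117 and 0.0571 without sgNop16 library 1, 2 or 3 and 0.0933 and 0.11 without sgCtr library 1 or 2. All 13 mitochondrially encoded members had a negative log2 difference, between -0.23 and -0.02, and since they share transcripts and libraries this is not a count of independent results. Their sum averaged 27543 ± 767 CPM in sgNop16 and 29584 ± 749.9 CPM in sgCtr cells without overlap, and the nuclear sum averaged 12525 ± 27.5 and 12751 ± 96.7 CPM.

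With CIT, 9 nuclear members were higher in sgNop16 than in sgCtr cells and 2 members were lower, beside 4.05% of all tested genes called higher and 3.07% called lower. Among genes with a mean of at least 20 CPM the share called higher was 7.79%, beside 10.2% of the 88 members, so the members' share is close to the background. Each of the 11 differences was under 1.2-fold. The 9 were Sdhb, Uqcr10, Uqcrq, Cox6a1, Cox5b, Ndufb8, Atp5j, Uqcrc1 and Atp5b, and every sgNop16 library was above every sgCtr library for each. The calls rest on the same libraries, so this separation adds no support to them. No share of all tested genes separated in this way is given here. Sdhb, with the values given above, was 14.8% higher (adjusted p = 0.00242). Uqcr10, a small subunit of complex III, had 149, 156 and 165 CPM in sgNop16 cells, against 142, 135 and 137 CPM in sgCtr cells, and was 13.6% higher (adjusted p = 0.00357). Those 2 calls held in every alternative fit, though not with a minimum of 1.2-fold. Cox5b, which binds zinc in complex IV, had 139, 141 and 142 CPM in sgNop16 cells, against 125, 128 and 127 CPM in sgCtr cells. It was 11.3% higher (adjusted p = 0.0103, and 0.0501 without sgCtr library 1). Of the 31-base words of Cox5b, 40.2% occur in other annotated genes.

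The other 6 were less steady. Uqcrq (0.18 ± 0.04, adjusted p = 0.0167) was not called without sgNop16 library 2 or 3 or sgCtr library 2 or 3 (0.0734, 0.0688, 0.0526 and 0.0874). Cox6a1 (0.16 ± 0.04, adjusted p = 0.0248) was not called without sgNop16 library 2 or 3 or sgCtr library 1 or 3 (0.0829, 0.127, 0.105 and 0.128). Ndufb8 (0.15 ± 0.04, adjusted p = 0.0252) was not called without sgNop16 library 2 or 3 (0.17 and 0.0586) or any 1 sgCtr library (0.0592, 0.0733 and 0.0786 without library 1, 2 and 3). Atp5j (0.13 ± 0.03, adjusted p = 0.0211) was not called without library 1 or 2 of either group (0.141 and 0.0501 for sgNop16, 0.0777 and 0.106 for sgCtr). Its exon overlap with Gabpa, given above, bears on this difference too. Uqcrc1 (0.10 ± 0.03, adjusted p = 0.0386) was not called in 11 of the 12 fits that leave out 1 library (adjusted p up to 0.16), the exception being sgCtr library 1 without CIT. Atp5b (0.07 ± 0.02, adjusted p = 0.0449) was called in none of the 12 (up to 0.233). Lower were Cox7a2l again, at 169, 169 and 167 CPM in sgNop16 cells against 182, 182 and 186 CPM in sgCtr cells (-0.12 ± 0.03, adjusted p = 0.0152), and mt-Nd5 (-0.09 ± 0.02, adjusted p = 0.0165). The Cox7a2l call was lost without library 3 of sgNop16 or sgCtr (0.0619 and 0.0723), and that of mt-Nd5 without library 1 or 3 of sgNop16 (0.0973 and 0.0864) or 1 or 2 of sgCtr (0.0529 and 0.0537).

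Whether the response to CIT differed between the guides was tested directly, and 2 of the 91 members were called, both with the smaller fall in sgNop16 cells, beside 1.23% of all tested genes called in that direction and 1.6% in the other. Among genes with a mean of at least 20 CPM, 2.53% were called in that direction and 3.05% in the other, beside 2.27% and 0% of the 88 members. The members' share is thus close to the background. The guide differences and the responses share libraries, so they are not separate evidence. Atp5b had log2 changes of -0.18 ± 0.02 in sgNop16 and -0.28 ± 0.02 in sgCtr cells, a difference of 0.10 ± 0.03 (adjusted p = 0.0448). Atp5o, of the peripheral stalk, had -0.02 ± 0.03 and -0.18 ± 0.03, a difference of 0.16 ± 0.04 (adjusted p = 0.03). Atp5o had 369, 374 and 379 CPM in sgNop16 cells with CIT, against 379, 386 and 374 CPM without, which overlap. The sgCtr libraries had 344, 355 and 353 CPM with CIT, against 416, 385 and 394 CPM without, with no overlap. Its annotated exons overlap other genes on both strands, and 63.2% of its 31-base words occur elsewhere. Atp5b was not called without any 1 of the 12 libraries (adjusted p up to 0.224), and Atp5o was not called without any 1 of 9 (up to 0.144). The Sdhb difference of 0.19 ± 0.06 was not called (adjusted p = 0.0627). At an unadjusted p under 0.05 the counts were 21 members with a positive and 1 with a negative difference of sgNop16 minus sgCtr. No share of all tested genes at that limit is given here, so these counts cannot be read against a background. The median difference was 0.08 over the tested nuclear members and 0.05 over the mitochondrially encoded ones, beside 0.01 over all tested genes.

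Among genes that build, feed or regulate the chain, more fell than rose with CIT in each list, except the complex III assembly factors in sgNop16 cells, where 1 fell and 1 rose. These lists were chosen with results of these data known, and their counts are read beside the shares of all tested genes given above. Of 19 genes of the TCA cycle and pyruvate dehydrogenase, 11 fell and 2 rose in sgNop16 and 15 fell and 2 rose in sgCtr cells. Idh3a, of the isocitrate dehydrogenase that makes NADH, fell (-0.42 ± 0.04 and -0.50 ± 0.04), and the pyruvate carrier subunit Mpc1 rose (0.50 ± 0.07 and 0.43 ± 0.07). Of 23 tested subunits and electron carriers outside the symbol pattern, 7 fell and 3 rose in sgNop16 and 14 fell and 2 rose in sgCtr cells. Cytochrome c (Cycs) was at -0.40 ± 0.04 and -0.57 ± 0.04, and the ubiquinone synthesis factor Coq8a at -0.98 ± 0.05 and -0.60 ± 0.05, the larger fall being that of sgNop16 cells by a called difference of -0.38 ± 0.07 (adjusted p = 0.00246). Etfdh, which passes electrons from fatty acid oxidation to ubiquinone, rose (0.56 ± 0.09 and 0.42 ± 0.09).

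Assembly factors are set beside the 18.5% of all tested genes called lower in sgNop16 and the 21.1% in sgCtr cells. Among genes with a mean of at least 20 CPM these shares were 31.7% and 36.9%. The counts of lower assembly factors for complexes I and IV are close to this background. For complex I, 5 of 18 fell and 1 rose in sgNop16 and 6 fell and 1 rose in sgCtr cells, the higher one being Acad9 (0.65 ± 0.05 and 0.51 ± 0.05). For complex IV, 6 of 24 tested fell and 1 rose in sgNop16 and 8 fell in sgCtr cells, with Cox10, of heme a synthesis, at -0.26 ± 0.07 and -0.41 ± 0.07. In the smaller lists, complex II had 1 of 4 lower with each guide, complex III had 1 and 3 of 6 lower and 1 higher with each, and ATP synthase had 2 and 3 of 5 lower, among them Fmc1 (-0.56 ± 0.15 and -0.75 ± 0.15). Of 17 mitochondrial chaperones and proteases, 10 and 12 fell and none rose, with Dnaja3 at -0.68 ± 0.04 and -0.75 ± 0.04 and the chaperonin Hspd1 at -0.42 ± 0.03 and -0.62 ± 0.03.

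Of 18 genes for upkeep and transcription of mitochondrial DNA, 6 fell in sgNop16 and 8 in sgCtr cells, among them the single-strand binding protein Ssbp1 (-0.50 ± 0.06 and -0.55 ± 0.06). Of 18 genes for mitochondrial RNA processing and stability, 8 and 12 fell and 1 rose with each guide, among them Tbrg4 (-0.32 ± 0.04 and -0.44 ± 0.04). Of 12 tested regulators of mitochondrial gene expression, 6 fell and 2 rose in sgNop16 and 8 fell and 1 rose in sgCtr cells. Myc, a transcription factor with many mitochondrial targets, was at 245 ± 5.95 and 197 ± 7.43 CPM in sgNop16 and sgCtr cells with CIT, against 463 ± 4.22 and 455 ± 6.38 CPM without. Its fall was smaller in sgNop16 cells, by a difference of 0.29 ± 0.04 (adjusted p = 0.000286). Between the guides without CIT edgeR called none of the genes in these lists. At an unadjusted p under 0.05 the TCA list had 2 higher and 0 lower and the chaperone list 0 higher and 2 lower. The complex IV assembly list had 2 higher and 1 lower, the carriers 1 and 2, and the regulators 1 and 1. The RNA list and the assembly lists of complexes III and V each had 1 higher and 0 lower, and the DNA list 0 and 1. Assembly factors of complexes I and II had 0 each way. With CIT, 6 of the 17 chaperones and proteases, 4 of the 19 TCA cycle genes, 3 of the 18 RNA genes and 3 of the 12 regulators were higher in sgNop16 than in sgCtr cells and none was lower. Of all tested genes, 4.05% were called higher and 3.07% lower in this comparison. Among genes with a mean of at least 20 CPM these shares were 7.79% and 5.66%. Of the 23 carriers and other subunits 5 were higher and 1, Coq8a, was lower, and of the 24 complex IV assembly factors Cox10 was higher and Cox19 lower. Complex I assembly had 1 gene higher, and the assembly factors of complexes II, III and V and the DNA list had no call by edgeR, with 2, 1, 2 and 1 genes higher and none lower at an unadjusted p under 0.05. For the unadjusted counts no share of all tested genes is given here.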

How the data were processed

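The authors deposited 1 table of estimated counts per gene (whole numbers, with an excess of multiples of 4) for 12 libraries made from total RNA with a directional kit, per the labels' protocols. HISAT2 2.2.1, StringTie 2.2.1 and GRCm39 are named in the submitters' processing notes; no source used here gives the annotation, the strand setting or the handling of reads with several matches. Symbols came from GENCODE M21 (GRCm38), which matched 51948 of 56941 gene IDs and left 4993 unmatched.

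Estimated counts were tested in R 4.3.3 with edgeR 4.0.16 (filterByExpr, TMM, common dispersion 0.015, quasi-likelihood F test with robust estimation). The fit had 1 mean per group over all 12 libraries, Benjamini-Hochberg adjustment ran over 16794 genes, and a call was an adjusted p under 0.05. Robust estimation was added to the planned fit to match earlier counts of these data. The steps were tested on simulated data. CPM are TMM-scaled, and per-length values divide CPM by the lower-median transcript length. P-values set the difference between group means against the spread between libraries, which is estimated over all 12 libraries together and not for each group.

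The members and lists were chosen with earlier results of these data known. Named were all mitochondrially encoded and complex II genes, per other complex and response the 3 called genes with the largest change each way at 5 CPM or more, called guide differences (up to 10 each way), isoform pairs, and up to 2 genes each way per list. Genes added after their values were seen are marked so. Promoter sequences are RefSeq's (GRCm38.p6), matched by symbol for 66 members. Windows on chromosome 18 were left out before matching, for members such as Ndufa2 and for other genes alike. Alternatives were another scaling, other filters, DESeq2 1.42.0, a replicate block, counts divided by 4, a fold minimum of 1.2, fewer shared 31-base words, and leaving out each library. Same-numbered libraries correlated at -0.0448 to 0.0234 in their deviations from group means, and other pairs at -0.0489 to 0.046, so numbers were not treated as pairs.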

Additional observations from a re-analysis of the deposited data

Results flagged for a closer look

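The response to CIT differed between the guides, by a test of the difference itself, for 2 members. For Atp5b the log2 change in sgNop16 minus that in sgCtr cells was 0.10, and for Atp5o it was 0.16. The adjusted p over the alternatives ran from 0.00458 to 0.224 for Atp5b and from 0.00371 to 0.144 for Atp5o. Groups of 3 libraries are too small for a check of single libraries standing apart.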

How the results depend on the processing

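Over the alternative fits, which leave out the fold minimum, the named calls kept direction and side of the threshold in 1378 fits, lost the call in 128 and reversed in none. Of 69 such calls, 48 held in all of these fits. Leaving out 1 library moved the counts in sgCtr cells with CIT to 49 to 56 lower and 1 to 2 higher, and those in sgNop16 cells to 34 to 44 lower and 2 to 4 higher. Between the guides it gave 1 to 7 lower without stimulation, and 3 to 8 higher and 0 to 3 lower with CIT. The differences of response gave 0 to 3. In the same fits the nuclear medians were -0.190 to -0.164 (CIT, sgCtr), -0.146 to -0.125 (CIT, sgNop16), -0.024 to -0.009 (guides, no stimulation), 0.048 to 0.061 (guides, CIT) and 0.055 to 0.080 (difference of responses), and the mitochondrial ones -0.051 to 0.007, -0.016 to 0.046, -0.105 to -0.058, -0.073 to 0.004 and 0.012 to 0.096. A minimum of 1.2-fold left 25 lower and 0 higher in sgCtr, 7 and 0 in sgNop16 cells and 0 in every other count. Keeping members with under 10% shared 31-base words, which tests fewer genes, gave 30 lower and 1 higher, 24 lower, 1 lower without stimulation, 5 higher and 0 lower with CIT, and 1 difference. With the replicate number as a block, 1 guide difference without stimulation and 1 difference of responses were called; the numbers do not pair the libraries. The 3 lower calls between guides without stimulation became 5 with a filter of 5 CPM or counts divided by 4, 7 with only the groups compared or DESeq2, and 6 without robust estimation. The differences of response became 1 with RLE factors, without a low-count filter or without robust estimation, 0 with library totals and 7 with DESeq2. Over all 11257 genes with an adjusted p in that comparison, DESeq2 called 366 higher and 401 lower. The higher calls with CIT became 1 in sgCtr cells without a low-count filter, and in sgNop16 cells 6 with library totals and 5 with the 5 CPM filter. Nuclear medians with library totals were -0.143, -0.115, -0.002, 0.049 and 0.060, and with the 5 CPM filter -0.157, -0.111 and, for the difference, 0.074. The mitochondrial median in sgCtr cells was 0.010 and -0.003 under these. The cause was not tested where the construction does not give it.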
